A study of Mus musculus with 8 samples.

Results

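The Fat and Dachsous giant cadherins were followed here in the auditory nerve together with the kinase that modifies them and the Celsr cadherins of planar cell polarity. The set was listed by gene symbol as Fat1, Fat2, Fat3, Fat4, Dchs1, Dchs2, Fjx1, Celsr1, Celsr2 and Celsr3, and all 10 were present among the 15035 genes measured. Fat4 was chosen by its measured rise in the libraries labelled heterozygote, so its difference between genotypes is given below as a description with no test. The other 9 genes were listed as its relatives by name. Auditory nerves were dissected from mice at postnatal day 21, both nerves of a mouse were pooled into 1 library, and bulk poly(A) RNA was sequenced. Wild-type mice gave libraries 1 to 4 and mice labelled Mef2c heterozygote (+/-) gave libraries 5 to 8. The strain, the sex, any Cre or promoter and the design of the Mef2c allele were not given in the sources used here. The comparison addresses the loss of 1 copy of Mef2c, a MADS-box transcription factor gene. Where nothing else is said, p-values adjusted over all 14870 genes tested are from limma-trend.

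Fat4 and Dchs1 are very large cadherins that bind each other across neighbouring cells, Fat4 as the receptor and Dchs1 as its ligand. Fjx1 is the vertebrate relative of the fly Golgi kinase Four-jointed, which phosphorylates cadherin repeats and alters how strongly the partners bind. The pathway orients cells within a tissue plane and feeds into Hippo growth control, while Celsr proteins do the former as cadherins with a multi-pass receptor domain. In the inner ear this system is best known for the orientation of hair bundles and the lengthening of the cochlear duct.

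The quality of the libraries was examined first. Reads were estimated at 13363571 to 21507345 per library, and column medians lay between 461.1 and 472.2 normalized counts, which are reads divided by a size factor per library. Mef2c had 438.6, 498.4, 508.7 and 402.2 normalized counts in wild-type libraries 1 to 4 and 583.3, 704.9, 735.1 and 649.8 in the libraries labelled heterozygote. Each of the latter lay above all 4 wild-type values, the opposite of what the label implies, so every direction below is between libraries as labelled. Wild-type library 1 stood apart, with correlations across genes down to 0.930 against at least 0.951 among the other 7. Neuron markers summed to between 168723 and 220401 normalized counts and Schwann cell markers to between 102116 and 142135, with overlap between genotypes for both lists. Both cell types of a nerve were therefore present at high levels in all 8 libraries.

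The positions of these genes are given next with the lengths of their transcripts, which are used below for scaling and for a correction. In GENCODE M21 (GRCm38, the assembly that mm10 names), Fat4 spans chromosome 3 from 38886940 to 39011985 on the forward strand, and its longest transcript has 16109 bases in 17 exons. Fat3 (chromosome 9, 15910189 to 16501285, reverse strand) has the longest transcript of the set, with 18760 bases in 26 exons. Fat1 (chromosome 8, 44935447 to 45052257, forward) and Fat2 (chromosome 11, 55250609 to 55336564, reverse) have 14814 and 14528 bases. The ligand gene Dchs1 lies on chromosome 7 (105752990 to 105787654, reverse) and Dchs2 on chromosome 3 (83127948 to 83357209, forward). Celsr1 lies on chromosome 15 (85898929 to 86033777, reverse), Celsr2 on chromosome 3 (108390851 to 108415552, reverse) and Celsr3 on chromosome 9 (108826320 to 108852969, forward). These 5 genes have transcripts of 10598 (Celsr2) to 11571 (Celsr3) bases. Fjx1 (chromosome 2, 102449366 to 102452499, reverse) is the exception, with 1 exon of 3134 bases, near the middle of all genes by length. The other 9 lie at or above the 97.9th percentile of transcript length, and all 9 fall in the longest 10% of the genes tested.

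The start of Fat4 is shown because an antisense gene, C230034O21Rik, covers it from the opposite strand (38874570 to 38888259). The library kit keeps the strand, but whether counting used it was not given in the sources used here, so reads of the pair cannot be told apart. The window runs from 250 bases before to 50 bases after the RefSeq start (GRCm38.p6, chr3:38886690-38886989, forward strand), and RefSeq and GENCODE place that start at the same base. The window at the start of Celsr2 (chr3:108415530-108415829, reverse strand) is set beside it as the one with the most CpG dinucleotides among the 7 members with a window. Capitals mark each CpG, written 5′ to 3′.
Fat4: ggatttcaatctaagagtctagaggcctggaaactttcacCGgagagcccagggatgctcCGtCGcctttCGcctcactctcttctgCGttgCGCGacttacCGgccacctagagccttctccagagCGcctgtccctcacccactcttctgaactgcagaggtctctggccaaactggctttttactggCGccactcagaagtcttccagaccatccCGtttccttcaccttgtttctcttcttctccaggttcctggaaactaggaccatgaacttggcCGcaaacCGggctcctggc
Celsr2: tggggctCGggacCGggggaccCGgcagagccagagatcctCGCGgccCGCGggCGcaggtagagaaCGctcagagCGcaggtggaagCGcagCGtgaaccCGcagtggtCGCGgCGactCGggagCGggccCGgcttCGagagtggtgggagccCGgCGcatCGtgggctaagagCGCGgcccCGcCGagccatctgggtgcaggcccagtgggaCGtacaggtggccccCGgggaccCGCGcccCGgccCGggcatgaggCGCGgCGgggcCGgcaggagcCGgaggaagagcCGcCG
Fat4 has 13 CpG dinucleotides in its window and Celsr2 has 40, against a median of 7 over 32851 RefSeq windows of the same length. The MEF2 consensus, searched on both strands, was found in 0 of the 7 members with a window and in 3.19% of all windows. A missing match says only that these letters are not in these windows. GGAATG, the core letters of the TEAD motif, searched on both strands, was found in Fat1 and Fat2 and in 14.7% of all windows. For those 2 genes the RefSeq start lies 14761 and 24307 bases downstream of the GENCODE start, so their windows do not cover the first GENCODE exon.

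Fat4, the receptor, was the member whose libraries separated by label. It had 391.9, 477.9, 558.2 and 321.3 normalized counts in wild-type libraries 1 to 4, and 696.3, 1004, 894.3 and 887.0 in heterozygote-labelled libraries 5 to 8. The groups did not overlap: the lowest library labelled heterozygote, library 5, lay above the highest wild-type library, library 3. The means were 437.3 ± 103 and 870.3 ± 128 (SD, n = 4 each), a log2 difference of 1.01 with a standard error of 0.18. Leaving out single libraries gave log2 differences from 0.87 to 1.14, and the correction for transcript length gave 0.68. These values chose the gene and support nothing further. In bulk tissue a larger share of cells that express a gene and more RNA per cell cannot be told apart, and likewise fewer cells and less RNA per cell. Genotypes did not overlap in 1 of the 10 members, against 7.26% of the 14870 genes tested, or 3.4% in the higher direction and 9.3% of the longest genes described below. Fat4 was also the only member at its lowest of all 8 libraries in wild-type library 4, although Dchs2 had its lowest wild-type value there too (61.4).

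Dchs1, the ligand of Fat4, had 629.4, 971.5, 1111 and 890.2 normalized counts in wild type and 1129, 1036, 960.3 and 1172 in the libraries labelled heterozygote. The groups overlapped, since wild-type libraries 2 and 3 were as high as the lower libraries of the other group. Its log2 difference was 0.28 (standard error 0.16, adjusted p = 0.427). Correction for transcript length took it to 0.012, and without wild-type library 1 it was 0.12.

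Dchs2, a less studied relative of Dchs1, was the lowest member and the only giant with a mean below wild type. It had 123.3, 105.4, 92.9 and 61.4 normalized counts in wild type and 57.4, 68.0, 72.9 and 123.0 in the libraries labelled heterozygote. Wild-type library 1 and heterozygote-labelled library 8 were at the same height at the top, so the groups overlapped. Between labels the log2 difference was -0.27 (standard error 0.31, adjusted p = 0.702). It was -0.13 without wild-type library 1 or without library 5, -0.46 without wild-type library 4, -0.49 without library 8 and -0.54 after correction for transcript length.

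Fjx1, the kinase relative, had 546.4, 682.1, 787.4 and 630.5 normalized counts in wild type and 719.1, 587.3, 543.8 and 605.7 in the libraries labelled heterozygote. It varied least of the members, with a ratio of 1.45 between its highest and lowest library. On the log2 scale the difference was -0.10 (standard error 0.14, adjusted p = 0.745). Omitting wild-type library 1 gave -0.19 and omitting wild-type library 3 gave -0.015. Omitting library 5 gave -0.18 and omitting library 7 gave -0.047.

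Of the other Fat genes, Fat1 was the most abundant. Fat1, known for links to the actin cytoskeleton, had 1707, 2799, 3551 and 2581 normalized counts in wild type and 3664, 2970, 3183 and 4152 in the libraries labelled heterozygote. Wild-type library 3 overlapped the other group, and library 1 lay far below the remaining 7. Its log2 difference was 0.43 (standard error 0.19, adjusted p = 0.343). Without wild-type library 1 it was 0.23, without wild-type library 3 it was 0.58, and after correction for transcript length 0.11.

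Fat3, known from the shaping of retinal neurons, had 141.5, 205.8, 291.5 and 239.2 normalized counts in wild type and 342.2, 256.2, 317.6 and 346.0 in the libraries labelled heterozygote. Library 6 of the latter fell below wild-type library 3, so the groups overlapped. Between labels the log2 difference was 0.56 (standard error 0.22, adjusted p = 0.307). It was 0.37 without wild-type library 1, 0.71 without wild-type library 3 and 0.21 after correction for transcript length.

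Fat2, known from cerebellar granule neurons and migrating epithelia, varied most of all members. It had 124.6, 366.7, 163.2 and 250 normalized counts in wild type and 177.1, 729.3, 311.9 and 192.2 in the libraries labelled heterozygote, a ratio of 5.85 between highest and lowest. Library 6 was the highest in its group and wild-type library 2 in the other, with the rest of both groups side by side. Its log2 difference was 0.51 (standard error 0.43, adjusted p = 0.592), and without library 6 it was 0.080. It was 0.27 without wild-type library 1, 0.78 without wild-type library 2 and 0.19 after correction for transcript length. Library 6 was also the highest in Kcnq1, a potassium channel of the lateral wall, with 725.8 normalized counts against 71.5 to 192.2 in the others. It had the most Zic1, a transcription factor, at 1277 against 490.4 to 948.7. Both genes were singled out after their values were seen, and their part in the Fat2 values was not tested. The summed granule neuron markers, a list that includes Zic1, ran from 2899 to 4531 in wild type and from 3265 to 5209 in the libraries labelled heterozygote, highest in library 6. Among wild type this sum was highest in library 1, where Fat2 was lowest, and was 3284 in library 2, where Fat2 was highest. Kcnq1 belongs to the cochlear supporting and lateral wall markers, whose sum in library 6, 131573, was the lowest of its group. Gabra6 and Neurod1 were not analysed here.

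**Figure D1:**
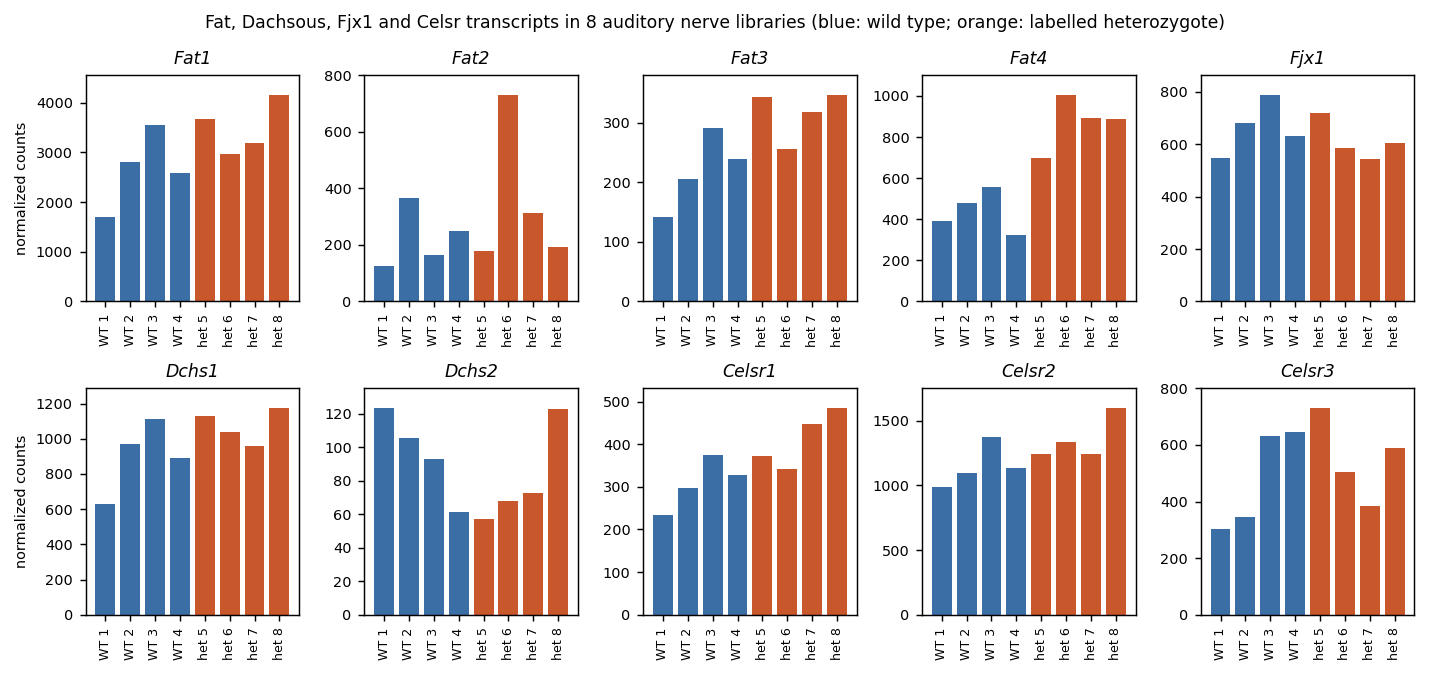
Normalized counts (vertical axis, from 0, a separate scale for each gene) of the 10 genes in each of the 8 libraries, wild type in blue and labelled heterozygote in orange, 1 bar per library. Fat4 is the 1 gene whose groups do not overlap, and Fat2 reaches 729.3 in library 6.

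The 3 Celsr genes were then examined. Celsr1, which orients hair bundles and other polarized cells, had 233.6, 298.1, 375.8 and 327.3 normalized counts in wild type and 371.5, 342.4, 446.7 and 483.8 in the libraries labelled heterozygote. Wild-type library 3 lay above 2 libraries of the other group. On the log2 scale the difference was 0.42 (standard error 0.18, adjusted p = 0.329). After correction for transcript length it was 0.15.

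Celsr2, known from neurons and ciliated ependymal cells, had 990.2, 1095, 1374 and 1135 normalized counts in wild type and 1241, 1334, 1241 and 1596 in the libraries labelled heterozygote. Only wild-type library 3 reached into the other group. Between labels the log2 difference was 0.24 (standard error 0.12, adjusted p = 0.393), and it changed sign, to -0.027, after correction for transcript length. Without library 8 the uncorrected difference was 0.16, and without wild-type library 3 it was 0.33.

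Celsr3, which guides axon tracts, had 302.4, 347.0, 630.6 and 647.4 normalized counts in wild type and 728.9, 504.5, 384.5 and 587.9 in the libraries labelled heterozygote. Low and high libraries occurred in both groups. On the log2 scale the difference was 0.24 (standard error 0.27, adjusted p = 0.690), and it was -0.043 after correction for transcript length. It was 0.043 without wild-type library 1, 0.11 without wild-type library 2 and 0.092 without library 5, but 0.40 without wild-type library 3 or without library 7 and 0.41 without wild-type library 4.

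Fat4 has no test and is left out of the counts by p-value. Of the other 9 members, limma-trend called 0 at an adjusted p under 0.05, against 0.0807% of the 14870 genes tested (0.00672% higher and 0.074% lower). At an unadjusted p under 0.05 there were 3 of these 9, Fat3, Celsr1 and Fat1, each with a higher mean in the libraries labelled heterozygote, against 14.1% of all genes, 6.72% in the higher direction, and 24.0% of the longest genes. Limma-voom on estimated reads gave 0 of these 9 by adjusted p, against 0.0941% of all genes, and 3 by unadjusted p, against 13.5%. Over the whole set, Fat4 included, the log2 difference was above 0 in 8 of 10 members, against 52.3% of all genes and 86.3% of the 1452 genes in the longest 10% by transcript, where it was 8 of 9 members. The median over the members was 0.35, or 0.28 without Fat4, against 0.015 over all genes and 0.23 over the longest 10%. Since Fat4 was chosen in this contrast, nothing is read from these counts. After correction for transcript length, 6 of 10 members were above 0 and their median was 0.060, against -0.013 over all genes with a known length. In the authors' deposited table the ratio of heterozygote to wild type was 1.99 for Fat4, 1.56 for Fat2 and 1.43 for Fat3. It was below 1 for Dchs2 (0.84) and Fjx1 (0.926), and between 1.14 (Celsr3) and 1.33 (Celsr1) for the rest.

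**Figure D2:**
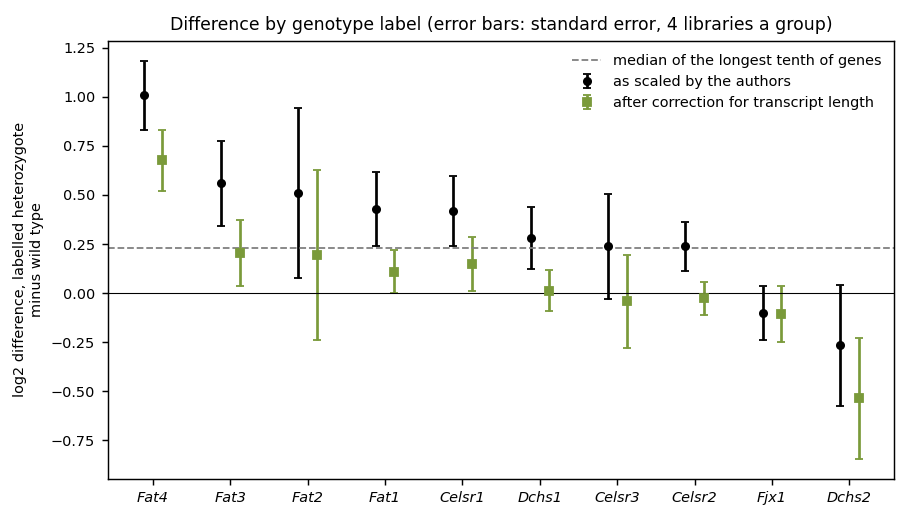
Log2 difference, labelled heterozygote minus wild type (vertical axis), of each gene before (black circles) and after (green squares) correction for transcript length, with standard errors from 4 libraries a group. The dashed line is the median of the longest 10% of genes, 0.23. Fat4 moves from 1.01 to 0.68, while Celsr2, Celsr3 and Dchs1 lie near 0 after the correction.

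Levels were compared between genes per kilobase of the longest transcript, over all 8 libraries. Fat1 and Fjx1 were the most abundant, at 208 ± 50.7 and 204 ± 27.4 normalized counts per kilobase (SD, n = 8). Celsr2 followed at 118 ± 17.7 and Dchs1 at 91.8 ± 16.1. Next by their means were Celsr3, Fat4 and Celsr1 at 44.7 ± 13.6, 40.6 ± 15.8 and 33.1 ± 7.32. The place of Fat4 here mixes its lower wild-type levels with its higher levels in the libraries labelled heterozygote. The lowest levels per kilobase were those of Fat2 at 19.9 ± 13.4, Fat3 at 14.3 ± 3.79 and Dchs2 at 8.16 ± 2.50. Per kilobase, Dchs1 was higher than both Dchs2 and Fat4 in 8 of 8 libraries.

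Each of the 45 pairs of genes was compared within libraries by a two-sided exact sign-flip permutation test, with Benjamini-Hochberg adjustment over the pairs. In 41 pairs the adjusted p was under 0.05, and the smallest unadjusted p that 8 libraries allow is 0.0078125. The order of 4 pairs was not separated. Fat1 and Fjx1 differed by -0.0051 ± 0.35 log2 units per length (SD, n = 8; exact permutation adjusted p = 0.969), with Fat1 higher in 4 of 8 libraries. Fat4 was higher than Celsr3 in 3 of 8 libraries (exact permutation adjusted p = 0.527). Those 3 were labelled heterozygote, and Fat4 was lower than Celsr3 in every wild-type library. Fat4 was higher than Celsr1 in 7 of 8 libraries, with the exception in wild-type library 4 (exact permutation adjusted p = 0.209). Both tests pool the labels and so include the difference by which Fat4 was chosen. They therefore cannot decide its order with Celsr3 or Celsr1. Fat2 exceeded Fat3 in 5 of 8 libraries, with a difference of 0.31 ± 0.87 log2 units (SD, n = 8; exact permutation adjusted p = 0.384). By genotype label, Fat4 per kilobase went from 27.1 ± 6.39 in wild type to 54.0 ± 7.93 (SD, n = 4 each), and Celsr3 from 41.6 ± 15.8 to 47.7 ± 12.5. Per kilobase of coding sequence Fjx1 had 472 normalized counts, since 1350 of its 3134 bases are coding, and Fat1 had 223.

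**Figure D3:**
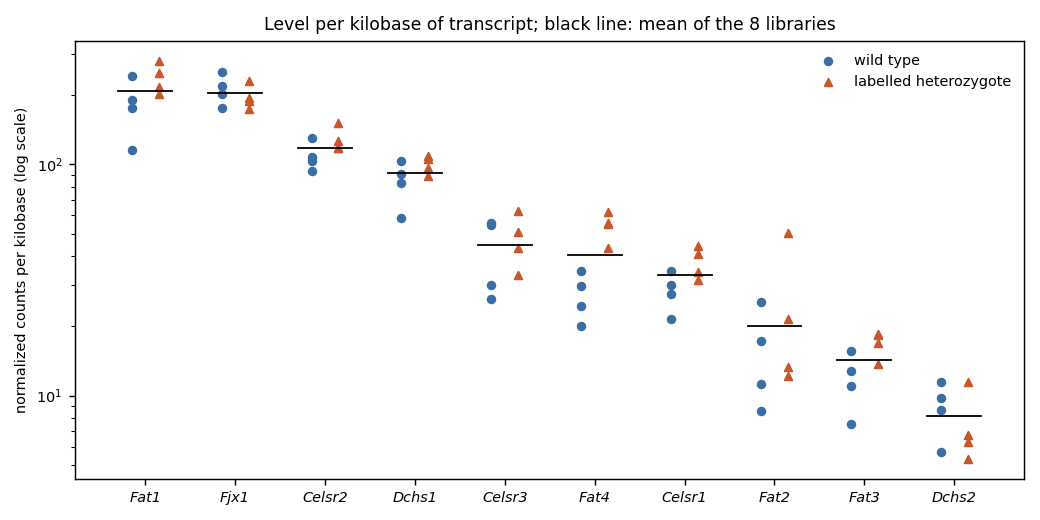
Normalized counts per kilobase of the longest transcript (vertical log axis) for the 10 genes in descending order of their mean, with 1 symbol per library, blue circles for wild type and orange triangles for labelled heterozygote. Black lines are means of 8 libraries, from 208 for Fat1 to 8.16 for Dchs2.

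Several members shared their lowest and highest libraries, counted over both genotypes. Wild-type library 1 was the lowest of all 8 libraries in 7 of 10 members (Fat1, Fat2, Fat3, Dchs1, Celsr1, Celsr2 and Celsr3), against 27.6% of all genes and 56.7% of the longest 10% of genes. Heterozygote-labelled library 8 was the highest in 5 members (Fat1, Fat3, Dchs1, Celsr1 and Celsr2), against 12.9% of all genes and 45.2% of the longest 10%. Both positions therefore include any difference between genotypes. The same libraries stood at the ends of the trend with transcript length. The slope of all genes on length was -0.21 log2 units per doubling in wild-type library 1 and 0.15 in library 8, with the other 6 between -0.098 and 0.067. Wild-type library 1 also had the most ribosomal RNA precursor, Rn45s, with 741630 normalized counts against 272483 to 502236 in the others. How much of the members' variation this trend carries was not tested beyond the length-corrected values.

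Fat4 and Dchs2 were not lowest in wild-type library 1. As deviations from the genotype mean on the log2 scale, Fat1 stood at -0.59 in wild-type library 1 and Fat4 at -0.13, while Dchs2 stood at 0.41. Fat4 had its own lowest deviation in wild-type library 4, at -0.41, where Fat1 was at 0.0050 and Dchs2 lower still at -0.59. In library 5, Fat4 was at -0.31, Fat1 at 0.08 and Dchs2 at -0.42. For Fat2 the highest deviation, 1.29, was in library 6, where Fat1 was at -0.22.

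**Figure D4:**
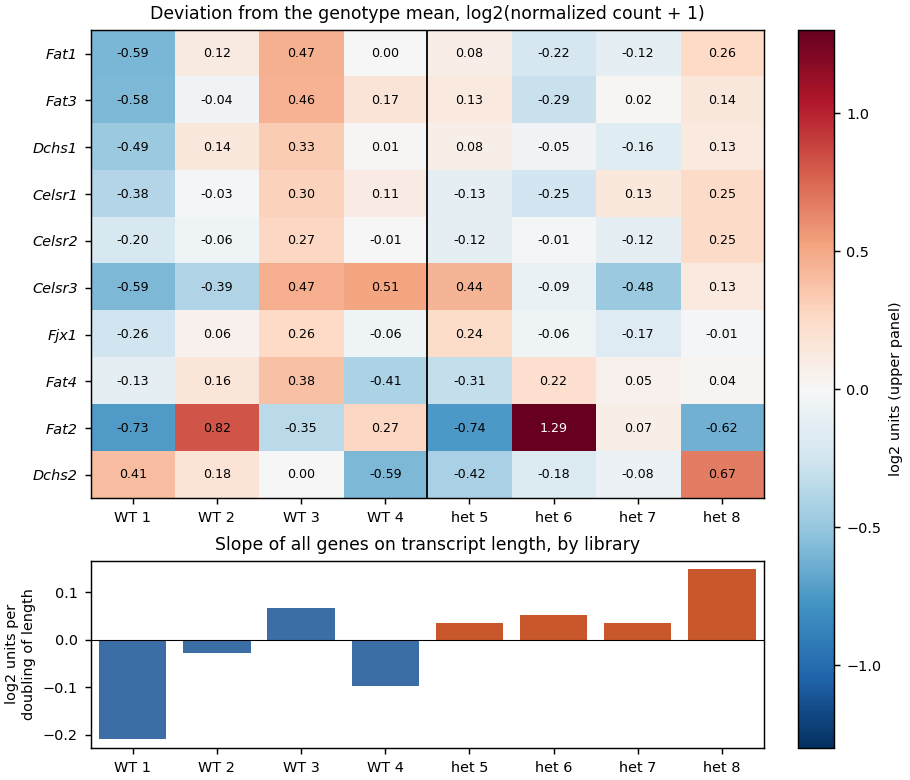
Upper panel: deviation of each gene (rows) from its genotype mean in each library (columns), in log2(normalized count + 1) units, with wild type left and labelled heterozygote right of the line. Lower panel: slope of all genes on transcript length in the same libraries, in log2 units per doubling. All genes but Dchs2 lie below their genotype mean in wild-type library 1, where the slope is -0.21. They run from -0.73 for Fat2 to -0.13 for Fat4, and Fjx1, with a transcript of 3134 bases, is at -0.26.

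The receptor, its ligand and the kinase were tested for joint variation within genotypes in 3 pairs. Pearson's r was computed over the 8 libraries after centring each genotype, with two-sided exact permutation within genotype and Benjamini-Hochberg adjustment over the 3 pairs. For Fat4 and Dchs1 r was 0.37 (n = 8, exact permutation p = 0.559, adjusted 0.686) and Spearman's rho 0.38 (exact permutation p = 0.455, adjusted 0.469). Without the 2 libraries farthest from the median of Fat4, wild-type library 4 and library 5, r was 0.84, and after correction for transcript length it was -0.44. For Fat4 and Fjx1 r was 0.21 (n = 8, exact permutation p = 0.686, adjusted 0.686) and rho 0.38 (exact permutation p = 0.469, adjusted 0.469), with r of 0.90 without the same 2 libraries and -0.32 after correction for length. No relation of Fat4 with its ligand or the kinase was thus shown, and the values turn on single libraries.

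For Dchs1 and Fjx1 the relation passed the threshold by r and not by rho. Their r was 0.86 (n = 8, exact permutation p = 0.0156, adjusted 0.0469) and their rho 0.90 (exact permutation p = 0.0174, adjusted 0.0521). Both were lowest among wild type in library 1 and highest in library 3. Without those 2 libraries, the farthest from the median, r was 0.67. After correction for transcript length r was 0.92. Single libraries left out gave r from 0.78 to 0.96, and without any 1 of wild-type libraries 1 to 4 or libraries 6 and 7 the adjusted p no longer passed (exact permutation, 0.104 to 0.167).

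Among 12207 genes with a mean of at least 100 normalized counts, the 5 most like Fat4 by these within-genotype deviations were Gclc, Tmed10, Nedd4, Arhgef18 and Sgms1. Their Pearson's r with Fat4 over 8 libraries, with no test, lay between 0.967 and 0.986. All 8 points share their libraries and depth with Fat4. Gclc encodes the catalytic subunit of glutathione synthesis, Nedd4 a ubiquitin ligase and Sgms1 a sphingomyelin synthase. None of the 5 was called between genotypes, with adjusted p from 0.310 (Nedd4) to 0.951 (Tmed10). Of the members themselves, Celsr2 was the most like Fat4 at 0.49, ranked 2054 of 12207.

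The wider pathway was read from 4 lists given whole. Core planar cell polarity holds the Frizzled, Vangl, Dishevelled and Prickle proteins with their partners. Of its 20 genes, all 20 were tested and limma-trend called 0 in either direction. At an unadjusted p under 0.05 there were 5 higher and 0 lower, against 6.72% of all genes higher and 24.0% of the longest 10% of genes. The median transcript of this list has 4504 bases, below the longest 10% (6865 bases or more). No share at the length of the list was computed. Over the list the median log2 difference was 0.16, against 0.015 over all genes, with 15 of 20 above 0, against 52.3% of all genes. After correction for transcript length 12 of 20 were above 0, against 6936 of 14517 genes with a known length, and the median was 0.088. The uncorrected median was 0.081 without wild-type library 4. Ankrd6, the relative of fly Diego, had the largest difference at 0.70 with a standard error of 0.22 (adjusted p = 0.259), from 178 ± 50.9 to 286 ± 50.3 normalized counts (SD, n = 4 each). Wnt11, a secreted polarity cue, had 0.66 and Prickle1 had 0.45, and their adjusted p was 0.351 and 0.346. The groups did not overlap in 0 of the 20 genes, against 3.4% of all genes in the higher direction.

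Hippo is the kinase cascade that restrains the coactivators Yap1 and Wwtr1. All 24 genes of its list were tested and 0 were called by limma-trend. At an unadjusted p under 0.05, 5 were higher and 0 lower, against 6.72% of all genes higher and 24.0% of the longest 10%. The median transcript of this list has 4708.5 bases, below the longest 10%, so the latter share is not matched to its length. A log2 difference above 0 was found in 23 of 24, against 52.3% of all genes, and the median was 0.20. After correction for transcript length 16 of 24 were above 0, against 6936 of 14517 genes with a known length. The median of the list was then 0.055, against -0.013 over those genes. The largest differences among genes with a mean of at least 50 were in Mob1a (0.45), Mob1b (0.39), both cofactors of the Lats kinases, and the upstream kinase Taok3 (0.36), and their adjusted p was 0.377, 0.355 and 0.325. The groups did not overlap in 2 of the 24, the kinases Stk4 and Lats1, against 3.4% of all genes in the higher direction. For Lats1 the highest wild-type value was 906.5 (library 3) and the lowest of the other group 907.0 (library 5). In these libraries 1 read is worth 0.92 and 1.09 normalized counts, so the separation of Lats1 lies within 1 read. Yap1 itself had a log2 difference of 0.16 and Wwtr1 of -0.018.

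Of 6 targets of Yap1 and Wwtr1, 5 were tested and 0 were called by limma-trend, with 1 higher at an unadjusted p under 0.05, against 6.72% of all genes. All 5 had log2 differences above 0, against 52.3% of all genes, with a median of 0.28. After correction for transcript length all 5 stayed above 0, against 6936 of 14517 genes with a known length, and the median was 0.21. The uncorrected median was 0.13 without wild-type library 4 and 0.18 without library 7. Crim1 had the largest at 0.43, from 1375 ± 274 to 1854 ± 379 normalized counts (SD, n = 4 each), with an adjusted p of 0.296. Ccn1 had 0.29 and Axl 0.28, at an adjusted p of 0.449 and 0.407. The groups did not overlap in 0 of the 5, against 3.4% of all genes in the higher direction. Ankrd1 was not analysed here.

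The fourth list holds proteins that bind the cytoplasmic tails of Fat and Dachsous cadherins. All 15 were tested and 0 were called by limma-trend, with 4 higher and 0 lower at an unadjusted p under 0.05, against 6.72% of all genes higher and 24.0% of the longest 10%. The median log2 difference was 0.16 with 11 of 15 above 0, against 52.3% of all genes, and it was 0.073 without wild-type library 1. After correction for transcript length it was 0.063 with 9 of 15 above 0, against 6936 of 14517 genes with a known length. Enah, an actin regulator that binds Fat1, had 4036, 6060, 5876 and 5508 normalized counts in wild type and 6437, 7902, 6612 and 7062 in the libraries labelled heterozygote. Atn1, the corepressor atrophin, had 1896, 2199, 2779 and 2306 against 2977, 2859, 2936 and 3188. The groups did not overlap in either gene, nor in Evl, an Enah relative. This makes 3 of the 15, against 3.4% of all genes in the higher direction and 9.3% of the longest 10%. The median transcript of the list has 5470 bases, and those of Atn1 (4433) and Evl (2180) are shorter. The shares of the longest 10% are therefore not matched to the length of this list. The log2 differences of Enah and Atn1 were 0.40 and 0.39, with adjusted p of 0.266 and 0.236, and Cyfip2 had 0.35 (0.341). Without wild-type library 3, Atn1 was called by limma-trend, with an adjusted p of 0.0373 and a log2 difference of 0.49. That omission gave 221 called genes over all genes, against 12 with all 8 libraries. After correction for transcript length, with all 8 libraries, the log2 difference of Atn1 was 0.32.

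**Figure D5:**
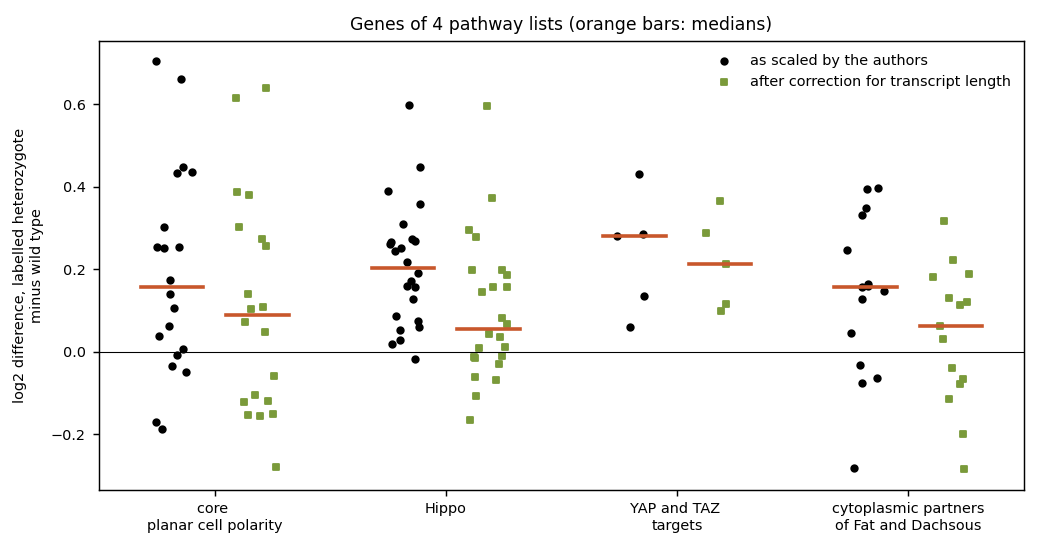
Log2 difference, labelled heterozygote minus wild type (vertical axis), of each tested gene of the 4 lists, before (black circles) and after (green squares) correction for transcript length, with medians as orange bars. The Hippo median moves from 0.20 to 0.055.

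Markers of oligodendrocytes and astrocytes, cells of the central part of the nerve, separated by genotype label. The 7 oligodendrocyte markers summed to between 21271 and 27565 normalized counts in wild type and between 8238 and 15932 in the libraries labelled heterozygote, with Opalin under 30 everywhere. The 4 astrocyte markers summed to between 17747 and 26993 and between 8615 and 15650. Neither list overlapped between genotypes, and log2 differences were above 0 in 1 of 7 and 0 of 4 markers, against 52.3% of all genes. Fibroblast sums ran from 26509 to 52331 in wild type and from 37488 to 52131 in the other group. Those of osteoblasts and osteocytes ran from 2843 to 10102 and from 6036 to 12774. In these 2 lists log2 differences were above 0 in 6 of 7 and 6 of 6 markers, against 52.3% of all genes. The 8 markers of cochlear supporting and lateral wall cells summed to between 121652 and 152072 and between 131573 and 167565. Of these, 6 of the 8 had log2 differences above 0, against 52.3% of all genes. Within that list Tecta, a tectorial membrane protein, had 34.7 to 232.8 in wild type and 311.9 to 851.9 in the libraries labelled heterozygote, without overlap. It was the only 1 of the 8 markers without overlap, against 7.26% of all genes, or 3.4% in the higher direction. Otog, another protein of these acellular membranes, had 2236 to 3823 and 3670 to 7881, with overlap. Tecta and Otog were not picked by a rule set beforehand. Hair cell sums ran from 5212 to 6748 and from 5670 to 8830, endothelial sums from 5224 to 6943 and from 4951 to 5956. In each of these 2 lists 4 of 5 markers had log2 differences above 0, against 52.3% of all genes. For the neuron and Schwann cell markers it was 3 of 9 and 2 of 7. Of 4 ependymal markers, 2 were measured, and these summed to between 769.6 and 995.6 and between 851.0 and 1213. The part of these cells in the levels of Fat4 and its relatives was not tested.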

How the data were processed

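Per the labels' protocols, strand-keeping poly(A) libraries were made from pooled nerves of 1 mouse each. The submitters' processing notes name STAR, DESeq2, Partek and build mm10. The authors deposited a signal per gene and library that holds read counts divided by a size factor, as judged from the values, of which 86.7% to 90.2% under 200 are whole multiples of 1 read. This is under the 95% needed for a count model. Per the file headers, the authors also deposited a ratio of group means, its log2, a score (signed fold change) and a p-value with FDR. Only the ratio was quoted.

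The 14870 genes that reached 10 normalized counts in 4 or more libraries, all 10 members included, were analysed as log2(value + 1), which understates changes of low genes, with limma-trend in R 4.3.3 with limma 3.58.1 on 8 libraries without covariates, with Benjamini-Hochberg adjustment over all genes tested and a threshold of 0.05. Further computation used Python 3.11.15 with numpy 2.4.6, pandas 2.3.3, scipy 1.17.1 and matplotlib 3.10.9. Transcript length came from the longest GENCODE M21 transcript, matched by symbol for 97.6% of genes. The length correction removed a loess trend (span 0.5) of each library on log2 length. The fit was checked on simulated data for 14870 genes with 200 changed: 99% of 4-fold and 74% of 2-fold changes were recovered, and 4 unchanged genes were called.

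All 10 members were named. In each pathway list the genes called were named, or else up to 3 with the largest difference and a mean of at least 50. The 5 genes most like Fat4 were named. The members and lists were chosen with earlier results of these data known. Alternatives were other pseudocounts (0.1 and 10), no filter, quantile and upper-quartile scaling, the length correction, low Xist (under 100) as a covariate, limma-voom on estimated reads, coding length, and each library left out in turn.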

Additional observations from a re-analysis of the deposited data

How the results depend on the processing

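No paired analysis was possible because the groups share no replicate number. The count of called genes among all genes was 12, and it became 7 with quantile normalization and 30 with the correction for transcript length. Leaving out single libraries gave 0 to 221 genes, the highest on omitting wild-type library 3, and 0 for wild-type library 2, wild-type library 4 or library 8, 7 for library 5 and 6 for library 7. The same omissions gave 0 to 1 of the cytoplasmic partners, with Atn1 on omitting wild-type library 3. The planned count over all 10 members was also 0 to 1 with single omissions, but it includes Fat4, which the contrast chose, and supports nothing. Over the other 9 it was 0 in all 16 alternatives. The log2 difference of Fat4 was 0.68 with the correction for transcript length, and under it Celsr2 (-0.027) and Celsr3 (-0.043) changed sign. The other 7 members kept the sign of their difference in all 16 alternatives. For Fat4 and Dchs1, r became -0.44 with the length correction, and leaving out single libraries gave -0.0027 to 0.52. For Fat4 and Fjx1 these were -0.32 and -0.30 to 0.69, in both pairs with the lowest value without wild-type library 3. For Dchs1 and Fjx1, single omissions gave 0.78 to 0.96, and without wild-type libraries 1 to 4 or libraries 6 or 7 the adjusted p did not pass 0.05 (exact permutation, 0.104 to 0.167). The ordered pairs numbered 37 to 39 of 45 with 1 library left out. Fewer libraries allow fewer permutations. For the other changes the cause was not tested.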
